A study of Homo sapiens with 8 samples.

Results

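The integrated stress response, serine synthesis and the unfolded protein response were followed through 40 genes, taken by symbol from the 19411 genes of a table of poly(A) RNA levels. The rule used gene symbols and no measured value, but the 40 genes were chosen with earlier results of these data known. Of the 40 genes, 24 belong to the arm run by the transcription factor ATF4 (7 transcription factors, 6 stress effectors and 11 enzymes), and 16 belong to the endoplasmic reticulum side (4 sensors of unfolded protein and their transcription factors, and 12 chaperones, folding and degradation factors). HCT116 cells, a human colorectal carcinoma line, were measured in 4 groups of 2 libraries: the circPRE8 line with a guide RNA called sgNORAD, the circPRE2 line with sgNORAD, the parental line with sgNORAD, and the parental line with sgControl. All 8 libraries came from cells that carry CRISPR interference (CRISPRi), in which a guide RNA brings an inactive Cas9 joined to a repressor to a chosen start site. The labels do not say what circPRE2 and circPRE8 are or whether a line is 1 clone, so both serve as names only. Libraries of these lines with sgControl, and the level of NORAD, were not analysed here, so a difference of a circPRE line from parental sgControl joins line and guide, which cannot be told apart.

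The integrated stress response starts with kinases that phosphorylate the translation factor eIF2 when cells lack amino acids, are infected or hold unfolded protein. General translation then slows while translation of ATF4 messenger RNA rises, and ATF4 protein switches on genes for amino acid synthesis and transport, transfer RNA charging, and feedback or cell death. The pathway that makes serine from a glycolysis intermediate is among its targets, and serine feeds folate-bound one-carbon units in mitochondria. The unfolded protein response uses the membrane sensors IRE1 (gene ERN1), PERK (EIF2AK3) and ATF6. IRE1 splices XBP1 messenger RNA, ATF6 is cut to free a transcription factor, and both raise chaperone genes, whereas PERK is an eIF2 kinase that links the reticulum to ATF4. ATF4 and XBP1 are regulated mainly by translation, splicing and protein turnover, which messenger RNA levels do not show.

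Levels were deposited as RPKM, reads scaled to exon length and library size. Library sizes recovered from the steps of low values were 44.65 and 49.27 megareads in circPRE8 sgNORAD, 46.25 and 50.28 in circPRE2 sgNORAD, 28.39 and 45.7 in parental sgNORAD, and 42.57 and 44.87 in parental sgControl. Parental sgNORAD replicate 1 was the shallowest library and had 4.01% of its summed RPKM in genes encoded by the mitochondrial genome, against 6.45% to 8.69% in the other 7 libraries. The labelled epithelial cell type was checked with 9 markers, of which 7 passed the filter on low values. EPCAM stood at 73.2 to 115 RPKM and KRT8 at 252 to 341 RPKM over the 8 libraries, CEACAM5 was at 0 in every library and LGALS4 was at 0.0528 RPKM or less. EPCAM, CDH1 and CLDN4 were lowest in circPRE8 sgNORAD, whereas the keratins KRT8, KRT18 and KRT19, which make up most of the sum, were highest there. So 3 of the 7 tested markers rose and 3 fell in circPRE8 sgNORAD against parental sgNORAD. Of all genes tested, 23.6% rose and 28.6% fell in that comparison. The summed epithelial markers were 1254 to 1282 RPKM in circPRE8 sgNORAD, 1024 to 1041 in circPRE2 sgNORAD, 1003 to 1038 in parental sgNORAD, and 1062 to 1120.3 in parental sgControl. The 7 fibroblast markers summed to 8.83 to 13.3 RPKM in circPRE8 sgNORAD, 6.10 to 6.52 in circPRE2 sgNORAD, 4.83 to 4.97 in parental sgNORAD, and 4.13 to 4.29 in parental sgControl. The step to circPRE8 sgNORAD lay mostly in SPARC, at 4.92 and 7.1 RPKM there against 1.38 and 1.62 in circPRE2 sgNORAD. SPARC was at 0.637 and 0.735 RPKM in parental sgNORAD and at 0.83 and 0.855 in parental sgControl. The step between those 2 groups lay in COL1A1, at 3.26 and 3.53 RPKM against 2.58 and 2.51. COL1A1 was highest in circPRE2 sgNORAD, at 4.04 and 3.99 RPKM. COL1A2 and COL3A1 were highest in circPRE8 sgNORAD replicate 2, at 0.817 and 1.33 RPKM. DCN, LUM and PDGFRB stayed at 0.152 RPKM or less. The 6 blood markers each stayed under 1 RPKM. Their sums were 1.12 to 1.18 RPKM in circPRE8 sgNORAD, 1.04 to 1.05 in circPRE2 sgNORAD, 0.761 to 0.861 in parental sgNORAD, and 0.650 to 0.834 in parental sgControl. The 4 endothelial markers summed to 0.198 RPKM or less. The 4 kidney and neural markers summed to 2.74 to 2.92 RPKM in circPRE8 sgNORAD, 2.40 to 2.44 in circPRE2 sgNORAD, 1.52 to 1.64 in parental sgNORAD, and 1.57 to 1.62 in parental sgControl. PAX2 carried that sum and rose in both circPRE lines against parental sgNORAD, while SOX2, NEFL and NEFM stayed at 0.0861 RPKM or less. The epithelial, blood, fibroblast, and kidney and neural sums were highest in circPRE8 sgNORAD, as were many stress genes, and their part in the results was not tested. In bulk RNA, fewer cells of a kind and less RNA per cell cannot be told apart.

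In the parental line, the genes of both arms were mostly lower with sgNORAD than with sgControl. In circPRE8 sgNORAD most of them stood near the parental sgControl level, and several stress effectors stood above it. In circPRE2 sgNORAD most endoplasmic reticulum genes lay near parental sgNORAD or between it and the control, while many serine synthesis and ATF4-arm genes lay at or under the parental sgNORAD level. Among the exceptions by mean level, EDEM1 lay above both of these groups and TXNDC5 under both. A call below means an adjusted p under 0.05 in limma on log2(RPKM + 0.1), with Benjamini-Hochberg adjustment over the 11585 genes that had at least 0.5 RPKM in at least 2 libraries, and a log2 difference is that of the mean of the first-named group minus the mean of the second. Of the 40 genes, 38 passed this filter. With 2 libraries a group, and nothing in the labels on whether they came from separate cultures, p-values measure only the spread between these libraries, which may be technical.

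In parental sgNORAD against parental sgControl, 4 of the 38 genes rose, where 20.9% of all genes tested rose, and 19 fell, where 16.4% of all genes tested fell. The median log2 difference was -0.16 over the 38 genes and 0.02 over all genes tested. In circPRE8 sgNORAD against parental sgNORAD, 23 of 38 rose (23.6% of all genes) and 5 fell (28.6% of all genes), with medians of 0.16 over the 38 genes and -0.02 over all genes. In circPRE8 sgNORAD against circPRE2 sgNORAD, 22 rose (18% of all genes) and 4 fell (25.7% of all genes), with medians of 0.19 and -0.04. In circPRE2 sgNORAD against parental sgNORAD, 2 rose (10.9% of all genes) and 4 fell (7.91% of all genes), both counts being of the size of the background. At an unadjusted p under 0.05 in limma, 7 of the 38 were higher and 13 lower there, against 2146 and 1745 of all 11585 genes. Against parental sgControl, circPRE2 sgNORAD had 4 genes that rose (25.2% of all genes) and 20 that fell (17.8% of all genes), and circPRE8 sgNORAD had 7 that rose (20% of all genes) and 4 that fell (20.5% of all genes). As shares of 38, the 7 circPRE8 sgNORAD rises against parental sgControl were close to the background and the 4 falls were under it. The 2 rises in circPRE2 sgNORAD against parental sgNORAD became 0 without parental sgNORAD replicate 2 or circPRE2 sgNORAD replicate 2 and 1 without circPRE2 sgNORAD replicate 1. The 4 falls in that comparison became 2 without replicate 1 of either group and 7 without parental sgNORAD replicate 2. Neighbouring comparisons share libraries, so their counts are not separate evidence. The genes were also chosen with earlier results of these data known, so counts set beside all genes tested are descriptions only. Leaving out 1 library changed some counts by over 1.5 times: the rises in parental sgNORAD against parental sgControl fell in number to 2 without parental sgControl replicate 1 or parental sgNORAD replicate 1. The 6 calls of circPRE2 sgNORAD against parental sgNORAD became 3 without circPRE2 sgNORAD replicate 1, and the 11 of circPRE8 sgNORAD against parental sgControl became 6 without circPRE8 sgNORAD replicate 2. The fits that left out 1 library gave 1 fall in place of 4 in circPRE8 sgNORAD against parental sgControl without parental sgControl replicate 2 or circPRE8 sgNORAD replicate 2. In circPRE2 sgNORAD against parental sgControl the 4 rises became 2 without parental sgControl replicate 2 or circPRE2 sgNORAD replicate 1, and in circPRE8 sgNORAD against circPRE2 sgNORAD the 4 falls became 2 without circPRE2 sgNORAD replicate 1.

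**Figure D1:**
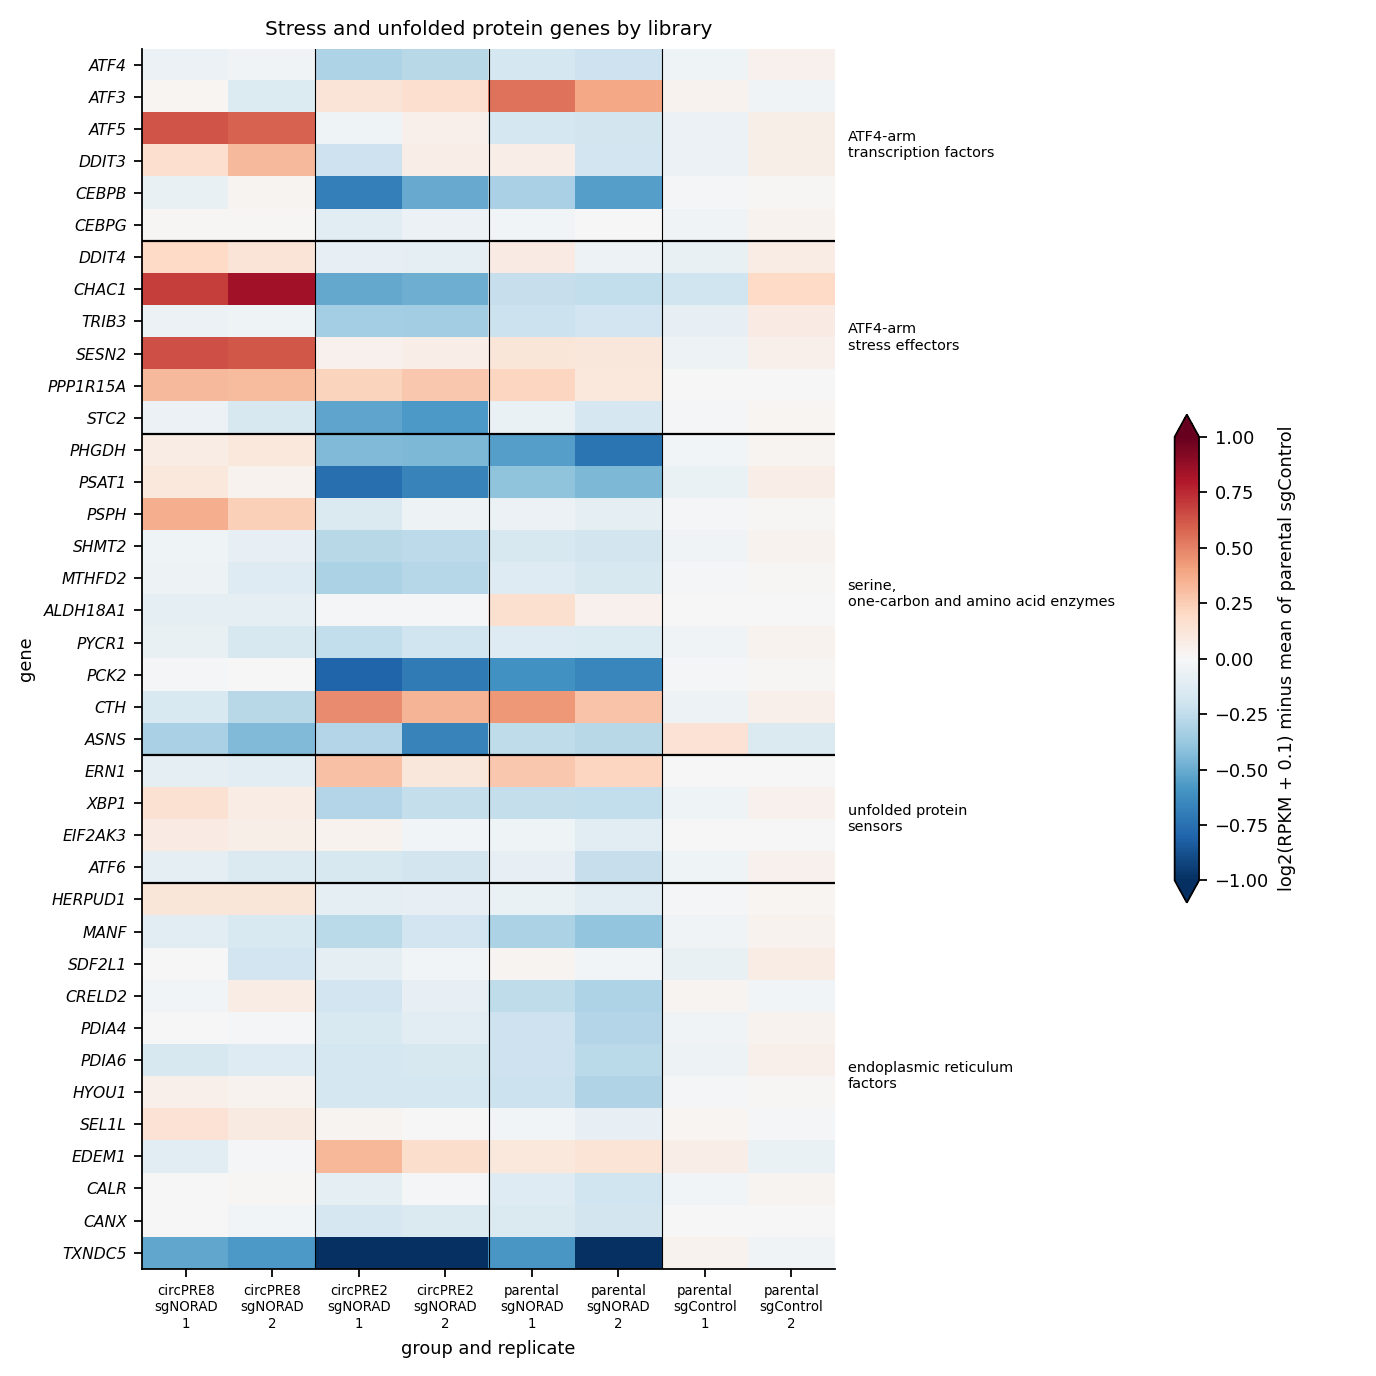
Heat map of log2(RPKM + 0.1) minus the mean of the 2 parental sgControl libraries for the 38 genes that passed the filter (rows, by role) in each of the 8 libraries (columns, by group and replicate). Red is higher and blue lower than the parental sgControl mean, and differences beyond 1 in size, reached by TXNDC5, take the end colour. CHAC1, ATF5 and SESN2 are red in both circPRE8 sgNORAD libraries, and PSAT1, PCK2 and PHGDH are blue in all circPRE2 sgNORAD and parental sgNORAD libraries.

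Letters of the response elements before the start sites are shown here because the 2 regulatory systems act through such elements. The genes were grouped by role and not by these letters. RefSeq windows of 250 bases before to 50 bases after the start (GRCh38.p14) were matched by symbol for 35 of the 40 genes. PYCR1, ALDH1L2, SHMT2, NUPR1 and PSPH had no entry. Both strands were searched for the C/EBP-ATF response element (CARE, letters TGATGNAA), which ATF4 binds with C/EBP partners, and for the 2 endoplasmic reticulum stress elements that XBP1 and ATF6 bind, ERSE (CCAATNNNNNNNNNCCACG) and ERSE-II (ATTGGNCCACG). No gene held both an ERSE and an ERSE-II. CARE letters stood in 5 of the 35 genes (4 of 19 of the ATF4 arm and 1 of 16 of the reticulum side), against 4.46% of all 27305 genes with any such window. ERSE letters stood in 0 of 19 and 5 of 16, against 0.0916% of all genes, and ERSE-II letters in 0 of 19 and 3 of 16, against 0.0696%. These matches are of letters only and say nothing about binding in these cells.

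The 5 CARE matches follow as 30 bases on the gene's strand, 5′ to 3′, with the matched letters in capitals: ASNS at chr7:97872458-97872487 (minus strand), ATF3 at chr1:212565205-212565234 (plus strand), CEBPG at chr19:33374060-33374089 (plus strand), CHAC1 at chr15:40953251-40953280 (plus strand) and HERPUD1 at chr16:56931955-56931984 (plus strand).
ASNS: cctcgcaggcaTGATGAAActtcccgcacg
ATF3: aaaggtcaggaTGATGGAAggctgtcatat
CEBPG: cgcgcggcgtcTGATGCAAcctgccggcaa
CHAC1: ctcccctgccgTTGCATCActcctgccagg
HERPUD1: gacgcggcgggTTGCATCAgcccgtgccca

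The 5 ERSE matches follow in the same form: CALR at chr19:12938379-12938408 (plus strand), CANX at chr5:179698773-179698802 (plus strand), CRELD2 at chr22:49918549-49918578 (plus strand), PDIA6 at chr2:10812847-10812876 (minus strand) and XBP1 at chr22:28800597-28800626 (minus strand).
CALR: ccacgCGTGGTCGACCATCATTGGtcggtg
CANX: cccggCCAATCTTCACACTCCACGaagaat
CRELD2: cctctCGTGGCGAACTCGGATTGGgccata
PDIA6: ccggaCCAATGAGCCGCAGCCACGgcttgg
XBP1: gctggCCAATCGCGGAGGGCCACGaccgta

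Of the genes with ERSE-II letters, HERPUD1 and SDF2L1 are shown as 30 bases and HYOU1, which held the letters at 2 places, as the 250 bases before its start: HERPUD1 at chr16:56932016-56932045 (plus strand), SDF2L1 at chr22:21642105-21642134 (plus strand) and HYOU1 at chr11:119057206-119057455 (minus strand). In HYOU1 the matches begin 185 and 79 bases before the start site.
HERPUD1: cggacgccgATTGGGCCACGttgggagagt
SDF2L1: cctcggaagCGTGGACCAATcaaaaccctc
HYOU1: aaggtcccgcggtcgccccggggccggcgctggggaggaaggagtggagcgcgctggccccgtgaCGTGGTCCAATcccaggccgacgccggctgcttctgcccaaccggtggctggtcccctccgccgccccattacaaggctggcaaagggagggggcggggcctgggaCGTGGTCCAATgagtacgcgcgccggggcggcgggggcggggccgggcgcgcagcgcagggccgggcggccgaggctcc

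Among the 7 ATF4-arm transcription factors, ATF4 and CEBPB were lower with sgNORAD in the parental line and stood at the control level in circPRE8 sgNORAD, ATF5 was highest in circPRE8 sgNORAD, and ATF3 went the other way. ATF4, the central activator of the response (chr22:39519695-39522685, plus strand, hg38), was abundant. ATF4 stood at 143 and 146 RPKM in circPRE8 sgNORAD, 120.5 and 123 in circPRE2 sgNORAD, 132 and 129 in parental sgNORAD, and 144 and 154 in parental sgControl. The 2 circPRE2 sgNORAD libraries were the lowest, and no parental sgNORAD library reached a parental sgControl or circPRE8 sgNORAD library. ATF4 fell by 12.5% in parental sgNORAD against parental sgControl (log2 difference -0.19, SE 0.039, adjusted p = 0.00255, limma with Benjamini-Hochberg adjustment). It rose 1.11-fold in circPRE8 sgNORAD against parental sgNORAD (log2 difference 0.14, SE 0.039, adjusted p = 0.00847) and 1.18-fold against circPRE2 sgNORAD (adjusted p = 0.000477). The call against parental sgNORAD was lost without circPRE8 sgNORAD replicate 2 (adjusted p = 0.067).

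CEBPB encodes the C/EBP family member that pairs with ATF4 at many targets. CEBPB stood at 35.4 and 37.9 RPKM in circPRE8 sgNORAD, 23.2 and 26.3 in circPRE2 sgNORAD, 29.7 and 25.5 in parental sgNORAD, and 37.0 and 37.7 in parental sgControl. Its circPRE8 sgNORAD and parental sgControl libraries lay together and apart from the other 4. CEBPB fell by 26.1% in parental sgNORAD against parental sgControl (log2 difference -0.44, SE 0.072, adjusted p = 0.000697) and rose 1.33-fold in circPRE8 sgNORAD against parental sgNORAD (log2 difference 0.41, SE 0.072, adjusted p = 0.00057). CEBPG stood at 17.3 and 17.3 RPKM in circPRE8 sgNORAD, 15.9 and 16.5 in circPRE2 sgNORAD, 16.9 and 17.2 in parental sgNORAD, and 16.7 and 17.6 in parental sgControl. CEBPG, another C/EBP partner of ATF4 with a CARE match, overlapped between groups or nearly so and was called in none of the 6 comparisons in the main fit. With median-of-ratios scaling it was called as a rise in circPRE8 sgNORAD against circPRE2 sgNORAD (limma adjusted p = 0.0276). With that scaling it was also called as a fall in circPRE2 sgNORAD against parental sgControl (0.0425).

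ATF5, an ATF4 relative that also activates the mitochondrial stress response, was separated by line. ATF5 stood at 17.6 and 17.1 RPKM in circPRE8 sgNORAD, 11.0 and 11.8 in circPRE2 sgNORAD, 10.0 and 9.99 in parental sgNORAD, and 10.9 and 11.8 in parental sgControl. Both circPRE8 sgNORAD libraries lay well above all 6 others, which overlapped between groups except that both parental sgNORAD libraries were the lowest. ATF5 rose 1.73-fold in circPRE8 sgNORAD against parental sgNORAD (log2 difference 0.79, SE 0.050, adjusted p = 3.18e-07) and 1.53-fold against parental sgControl (log2 difference 0.61, SE 0.050, adjusted p = 4.36e-06). Its fall in parental sgNORAD against parental sgControl (log2 difference -0.18) and its rise in circPRE2 sgNORAD against parental sgNORAD (0.19) were small. The fall was no longer called without parental sgControl replicate 2 (adjusted p = 0.15). The rise in circPRE2 sgNORAD was not called without parental sgNORAD replicate 1 (adjusted p = 0.0663), parental sgNORAD replicate 2 (0.0509) or circPRE2 sgNORAD replicate 2 (0.175), and also with no filter on low values (0.0617) or with no intensity trend in the variance (0.0684).

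DDIT3, which encodes the cell death factor CHOP, was low. DDIT3 stood at 5.07 and 5.65 RPKM in circPRE8 sgNORAD, 3.89 and 4.73 in circPRE2 sgNORAD, 4.72 and 3.93 in parental sgNORAD, and 4.31 and 4.71 in parental sgControl. The circPRE8 sgNORAD libraries were the highest of the 8, by a small step. DDIT3 rose in circPRE8 sgNORAD against parental sgNORAD (log2 difference 0.31, SE 0.10, adjusted p = 0.0247) and against circPRE2 sgNORAD (log2 difference 0.31, SE 0.10, adjusted p = 0.0273). The first call was lost without parental sgNORAD replicate 2 (adjusted p = 0.181) or circPRE8 sgNORAD replicate 2 (0.171), and also with no filter on low values (0.0908) or with no intensity trend in the variance (0.0676). The second was lost without circPRE2 sgNORAD replicate 1 (adjusted p = 0.248) or circPRE8 sgNORAD replicate 2 (0.179), and also with no filter on low values (0.0993) or with no intensity trend in the variance (0.0743). ATF3, a stress-induced repressor and activator that ATF4 and p53 both switch on, was highest in parental sgNORAD. ATF3 stood at 4.89 and 4.39 RPKM in circPRE8 sgNORAD, 5.28 and 5.44 in circPRE2 sgNORAD, 7.08 and 6.35 in parental sgNORAD, and 4.95 and 4.70 in parental sgControl. Both parental sgNORAD libraries lay above the other 6. ATF3 rose 1.38-fold in parental sgNORAD against parental sgControl (log2 difference 0.47, SE 0.069, adjusted p = 0.000347), and it fell by 30.4% in circPRE8 sgNORAD and by 19.7% in circPRE2 sgNORAD against parental sgNORAD (adjusted p = 7.2e-05 and 0.00887). It also fell by 13.3% in circPRE8 sgNORAD against circPRE2 sgNORAD. The circPRE2 sgNORAD call against parental sgNORAD was lost without parental sgNORAD replicate 1 (adjusted p = 0.0569) or circPRE2 sgNORAD replicate 1 (0.0709). The call between the circPRE lines was lost without circPRE2 sgNORAD replicate 1 (adjusted p = 0.0774), circPRE2 sgNORAD replicate 2 (0.127) or circPRE8 sgNORAD replicate 2 (0.23), and also with no filter on low values (0.0766) or with no intensity trend in the variance (0.0584). The stress cofactor gene NUPR1 was under the filter. NUPR1 stood at 0.134 and 0.204 RPKM in circPRE8 sgNORAD, 0.0572 and 0.0596 in circPRE2 sgNORAD, 0.0621 and 0.027 in parental sgNORAD, and 0.0331 and 0.0236 in parental sgControl. These levels stood on 34 and 57 recovered reads in circPRE8 sgNORAD, 15 and 17 in circPRE2 sgNORAD, 10 and 7 in parental sgNORAD, and 8 and 6 in parental sgControl, and no test was made.

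The ATF4-arm stress effectors had the highest levels of circPRE8 sgNORAD relative to the control. Of 6, 5 rose and 0 fell in circPRE8 sgNORAD against parental sgNORAD, where 23.6% of all genes tested rose and 28.6% fell. Against circPRE2 sgNORAD 5 rose and 0 fell (18% and 25.7% of all genes), and against parental sgControl 4 rose (20% of all genes). In limma, 0 also fell at an unadjusted p under 0.05 in either of the first 2 comparisons, where 3707 and 3540 of all 11585 genes did. The 5 rises against parental sgNORAD became 3 without parental sgNORAD replicate 2 or circPRE8 sgNORAD replicate 2, and 2 without circPRE8 sgNORAD replicate 1. CHAC1 encodes an enzyme that breaks down glutathione and is a late ATF4 target. CHAC1 stood at 5.95 and 6.63 RPKM in circPRE8 sgNORAD, 2.53 and 2.57 in circPRE2 sgNORAD, 3.09 and 3.06 in parental sgNORAD, and 3.17 and 4.21 in parental sgControl. The circPRE8 sgNORAD libraries were the highest and the circPRE2 sgNORAD libraries the lowest, with no overlap between them and the rest. CHAC1 rose 2.01-fold in circPRE8 sgNORAD against parental sgNORAD (log2 difference 1.01, SE 0.10, adjusted p = 1.21e-05), the largest rise of the 38 genes in that comparison, and 1.70-fold against parental sgControl (log2 difference 0.77, SE 0.10, adjusted p = 0.000175). In circPRE2 sgNORAD it fell by 29.4% against parental sgControl (log2 difference -0.50, SE 0.10, adjusted p = 0.00252). Against parental sgNORAD it was lower there by a log2 difference of -0.26 and not called in the main fit (limma adjusted p = 0.102). A fit of the compared groups alone called that fall (limma adjusted p = 0.0388).

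SESN2 encodes sestrin, a leucine sensor that restrains the growth kinase mTORC1 and is also a p53 target. SESN2 stood at 13.2 and 13.0 RPKM in circPRE8 sgNORAD, 8.66 and 8.76 in circPRE2 sgNORAD, 9.11 and 9.06 in parental sgNORAD, and 8.10 and 8.67 in parental sgControl. The circPRE8 sgNORAD libraries lay far above a narrow band that held the other 6. SESN2 rose 1.43-fold in circPRE8 sgNORAD against parental sgNORAD (log2 difference 0.52, SE 0.046, adjusted p = 3.61e-06) and 1.55-fold against parental sgControl (log2 difference 0.63, SE 0.046, adjusted p = 1.79e-06). DDIT4, which encodes the mTORC1 inhibitor REDD1, was also highest in circPRE8 sgNORAD, by less. DDIT4 stood at 19.0 and 18.1 RPKM in circPRE8 sgNORAD, 15.6 and 15.5 in circPRE2 sgNORAD, 17.5 and 16.0 in parental sgNORAD, and 15.7 and 17.4 in parental sgControl. It rose in circPRE8 sgNORAD against circPRE2 sgNORAD (log2 difference 0.25, SE 0.057, adjusted p = 0.00388). The DDIT4 calls against parental sgNORAD (log2 difference 0.15) and parental sgControl (0.17) were lost in several alternative fits. The first was lost without parental sgNORAD replicate 2 (adjusted p = 0.276), circPRE2 sgNORAD replicate 1 (0.0559), circPRE2 sgNORAD replicate 2 (0.056), circPRE8 sgNORAD replicate 1 (0.224) or circPRE8 sgNORAD replicate 2 (0.0618), and also with no filter on low values (0.105) or with no intensity trend in the variance (0.104). The second was lost without parental sgControl replicate 1 (adjusted p = 0.296), circPRE8 sgNORAD replicate 1 (0.191) or circPRE8 sgNORAD replicate 2 (0.0606), and also with no filter on low values (0.0932) or with no intensity trend in the variance (0.0924).

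TRIB3, a pseudokinase that dampens ATF4 and AKT signalling, and STC2, a secreted glycoprotein gene induced through PERK and ATF4, were lowest in circPRE2 sgNORAD. TRIB3 stood at 15.5 and 15.6 RPKM in circPRE8 sgNORAD, 12.7 and 12.6 in circPRE2 sgNORAD, 13.8 and 14.1 in parental sgNORAD, and 15.3 and 17.0 in parental sgControl. STC2 stood at 11.5 and 10.7 RPKM in circPRE8 sgNORAD, 8.24 and 7.97 in circPRE2 sgNORAD, 11.4 and 10.6 in parental sgNORAD, and 11.8 and 12.1 in parental sgControl. Both circPRE2 sgNORAD libraries lay under the 6 others for either gene. For TRIB3 the difference of circPRE2 sgNORAD from parental sgNORAD was not called in the main fit (log2 difference -0.14, limma adjusted p = 0.0704). STC2 fell by 25.9% in circPRE2 sgNORAD against parental sgNORAD (log2 difference -0.43, SE 0.052, adjusted p = 0.000331), the largest fall of the 38 genes in that comparison among those called. TRIB3 fell by 13.2% in parental sgNORAD against parental sgControl (adjusted p = 0.00766) and rose 1.22-fold in circPRE8 sgNORAD against circPRE2 sgNORAD (log2 difference 0.29, SE 0.050, adjusted p = 0.000761) and 1.11-fold against parental sgNORAD. The fall was lost without parental sgControl replicate 2 (adjusted p = 0.0928). The rise against parental sgNORAD was lost without parental sgNORAD replicate 1 (adjusted p = 0.0816), circPRE8 sgNORAD replicate 1 (0.0714) or circPRE8 sgNORAD replicate 2 (0.0972), and also with no filter on low values (0.0519) or with no intensity trend in the variance (0.059).

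PPP1R15A encodes GADD34, which brings a phosphatase to eIF2 and ends the response. PPP1R15A stood at 13.7 and 13.6 RPKM in circPRE8 sgNORAD, 12.8 and 13.2 in circPRE2 sgNORAD, 12.7 and 11.8 in parental sgNORAD, and 11.0 and 10.9 in parental sgControl. It was higher in all 6 sgNORAD libraries than in both parental sgControl libraries. It rose in circPRE8 sgNORAD (log2 difference 0.32, SE 0.046, adjusted p = 0.00024) and in circPRE2 sgNORAD (log2 difference 0.25, SE 0.046, adjusted p = 0.00121) against parental sgControl. Its rises in parental sgNORAD against parental sgControl (0.16 on the log2 scale) and in circPRE8 sgNORAD against parental sgNORAD (0.16) were smaller. The first of these was lost without parental sgControl replicate 1 (adjusted p = 0.0611), parental sgControl replicate 2 (0.0848) or parental sgNORAD replicate 1 (0.116). The second was lost without parental sgNORAD replicate 2 (adjusted p = 0.0849) or circPRE8 sgNORAD replicate 1 (0.0542).

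**Figure D2:**
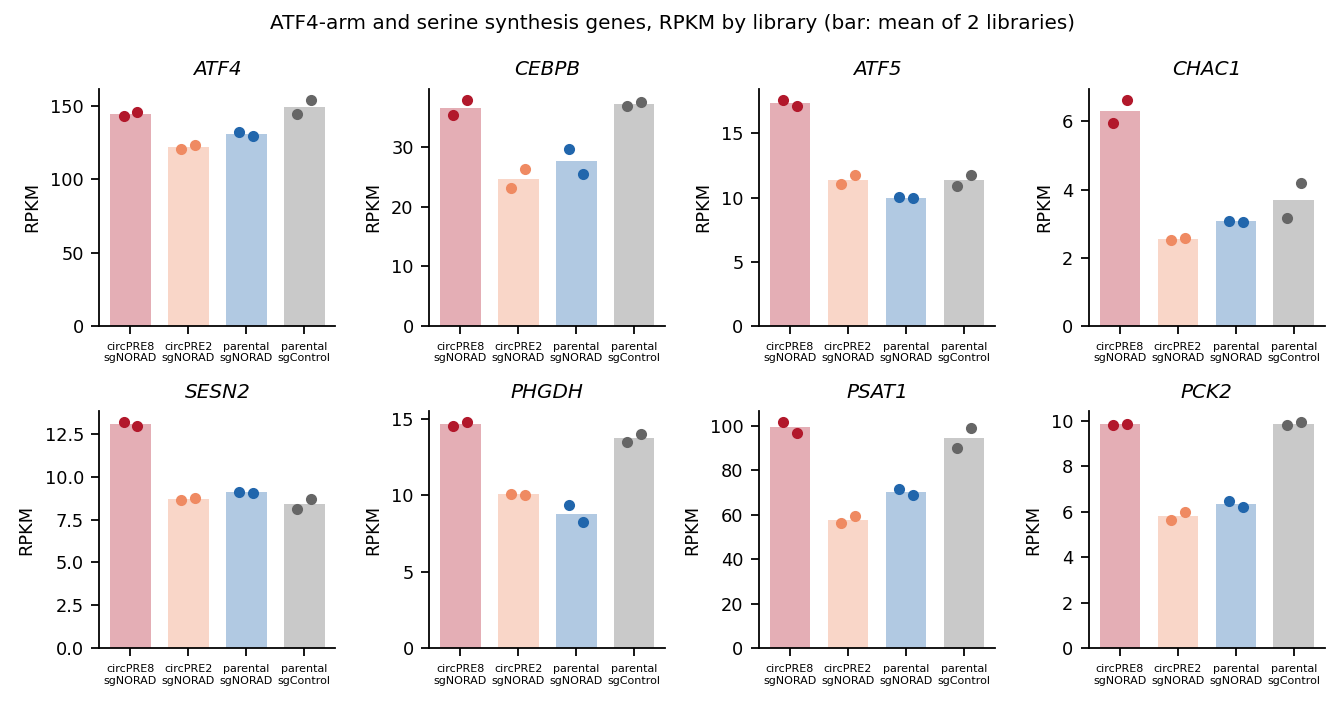
RPKM in each library (points, 2 per group) with the mean of the group (bars from 0) for ATF4, CEBPB, ATF5, CHAC1, SESN2, PHGDH, PSAT1 and PCK2, with groups from left to right circPRE8 sgNORAD, circPRE2 sgNORAD, parental sgNORAD and parental sgControl. ATF5, CHAC1 and SESN2 are highest in circPRE8 sgNORAD, and CEBPB, PHGDH, PSAT1 and PCK2 are lower in circPRE2 sgNORAD and parental sgNORAD than in the outer 2 groups.

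PHGDH and PSAT1 fell with sgNORAD in the parental line, and PSPH was not called there. PHGDH, PSAT1 and PSPH encode the 3 enzymes that turn 3-phosphoglycerate into serine, in that order. PHGDH stood at 14.5 and 14.8 RPKM in circPRE8 sgNORAD, 10.1 and 10.0 in circPRE2 sgNORAD, 9.35 and 8.25 in parental sgNORAD, and 13.5 and 14.0 in parental sgControl. PSAT1 stood at 102 and 96.9 RPKM in circPRE8 sgNORAD, 56.1 and 59.6 in circPRE2 sgNORAD, 71.5 and 69.0 in parental sgNORAD, and 90.1 and 99.2 in parental sgControl. PSPH stood at 22.0 and 20.3 RPKM in circPRE8 sgNORAD, 15.5 and 16.5 in circPRE2 sgNORAD, 16.4 and 16.1 in parental sgNORAD, and 17.0 and 17.2 in parental sgControl. For PHGDH and PSAT1, both circPRE8 sgNORAD libraries lay in or just above the parental sgControl range and all 4 libraries of circPRE2 sgNORAD and parental sgNORAD lay under it, whereas for PSPH only circPRE8 sgNORAD stood apart, above the 6 other libraries. PHGDH fell by 35.9% in parental sgNORAD against parental sgControl (log2 difference -0.64, SE 0.055, adjusted p = 8.62e-06) and PSAT1 fell by 25.6% (log2 difference -0.43, SE 0.049, adjusted p = 6.45e-05). In circPRE8 sgNORAD against parental sgNORAD, PHGDH rose 1.66-fold (log2 difference 0.73, SE 0.055, adjusted p = 1.12e-06), PSAT1 rose 1.41-fold (adjusted p = 8.81e-06) and PSPH rose 1.30-fold (adjusted p = 6.06e-05). PSPH has a near-identical pseudogene copy, PSPHP1, so its level is uncertain where reads could be split between them.

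The first 2 steps went opposite ways in circPRE2 sgNORAD. PSAT1 fell by 17.7% against parental sgNORAD (log2 difference -0.28, SE 0.049, adjusted p = 0.00334), while PHGDH rose 1.14-fold (log2 difference 0.19, SE 0.055, adjusted p = 0.0308). The PHGDH libraries of these 2 groups did not overlap, but parental sgNORAD replicate 2 was the lower of its pair by more than 1 RPKM. The PHGDH call was lost without parental sgNORAD replicate 2 (adjusted p = 0.157), circPRE2 sgNORAD replicate 1 (0.141) or circPRE2 sgNORAD replicate 2 (0.101), and also with no filter on low values (0.0825), with no intensity trend in the variance (0.0835) or in a fit of the compared groups alone (0.0698). Against parental sgControl, PHGDH fell by 26.7% and PSAT1 fell by 38.8% in circPRE2 sgNORAD (adjusted p = 8.31e-05 and 1.45e-06). Over the lines, PSAT1 rose 1.71-fold in circPRE8 sgNORAD against circPRE2 sgNORAD (log2 difference 0.78, SE 0.049, adjusted p = 6.02e-07).

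PCK2, the mitochondrial phosphoenolpyruvate carboxykinase, which can feed serine synthesis from mitochondrial carbon, followed PSAT1. PCK2 stood at 9.82 and 9.87 RPKM in circPRE8 sgNORAD, 5.62 and 6.01 in circPRE2 sgNORAD, 6.47 and 6.23 in parental sgNORAD, and 9.81 and 9.93 in parental sgControl. Its 4 circPRE8 sgNORAD and parental sgControl libraries lay within 9.81 to 9.93 RPKM, and the other 4 lay far below. PCK2 fell by 35.3% in parental sgNORAD (log2 difference -0.63, SE 0.049, adjusted p = 3.62e-06) and by 40.7% in circPRE2 sgNORAD (adjusted p = 8.58e-07), both against parental sgControl. It rose 1.54-fold in circPRE8 sgNORAD against parental sgNORAD (log2 difference 0.62, SE 0.049, adjusted p = 1.47e-06).

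SHMT2 and MTHFD2, which pass one-carbon units from serine to folate inside mitochondria, moved with smaller steps. SHMT2 stood at 53.9 and 52.4 RPKM in circPRE8 sgNORAD, 45.7 and 46.2 in circPRE2 sgNORAD, 49.8 and 48.7 in parental sgNORAD, and 54.0 and 57.0 in parental sgControl. MTHFD2 stood at 68.5 and 65.1 RPKM in circPRE8 sgNORAD, 57.1 and 58.3 in circPRE2 sgNORAD, 65.1 and 63.5 in parental sgNORAD, and 70.6 and 71.4 in parental sgControl. Both genes were lowest in circPRE2 sgNORAD, next lowest in parental sgNORAD and higher in the other 2 groups, with no library out of that order except circPRE8 sgNORAD replicate 2 of MTHFD2, at the level of parental sgNORAD replicate 1. SHMT2 fell by 11.2% and MTHFD2 by 9.46% in parental sgNORAD against parental sgControl (adjusted p = 0.00397 and 0.00964), and they rose 1.16-fold and 1.16-fold in circPRE8 sgNORAD against circPRE2 sgNORAD (adjusted p = 0.00103 and 0.000866). MTHFD2 also fell in circPRE2 sgNORAD against parental sgNORAD (-0.15 on the log2 scale), and SHMT2 rose in circPRE8 sgNORAD against parental sgNORAD (0.11). The MTHFD2 fall with sgNORAD was lost without parental sgControl replicate 2 (adjusted p = 0.0552). Its fall in circPRE2 sgNORAD was lost without parental sgNORAD replicate 1 (adjusted p = 0.065) or circPRE2 sgNORAD replicate 1 (0.112), and also with no intensity trend in the variance (0.0609). The SHMT2 rise against parental sgNORAD was lost without parental sgNORAD replicate 2 (adjusted p = 0.106), circPRE8 sgNORAD replicate 1 (0.154) or circPRE8 sgNORAD replicate 2 (0.0519), and also with no intensity trend in the variance (0.0764). ALDH1L2, a mitochondrial folate dehydrogenase gene, was under the filter at 0.166 to 0.22 RPKM over the 8 libraries and was not tested.

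The proline, cysteine and asparagine enzymes did not form 1 pattern. ALDH18A1 and PYCR1 encode the first and last enzymes that make proline from glutamate. ALDH18A1 stood at 36.1 and 36.0 RPKM in circPRE8 sgNORAD, 38.0 and 37.9 in circPRE2 sgNORAD, 42.9 and 39.6 in parental sgNORAD, and 38.4 and 38.5 in parental sgControl. PYCR1 stood at 92.3 and 86.9 RPKM in circPRE8 sgNORAD, 82.0 and 84.4 in circPRE2 sgNORAD, 88.8 and 88.3 in parental sgNORAD, and 94.6 and 99.6 in parental sgControl. ALDH18A1 was lowest in circPRE8 sgNORAD and PYCR1 in circPRE2 sgNORAD. ALDH18A1 fell in circPRE8 sgNORAD against parental sgNORAD (log2 difference -0.19, SE 0.040, adjusted p = 0.00198) and was not called with sgNORAD in the parental line, where its log2 difference was 0.10. PYCR1 fell in circPRE2 sgNORAD against parental sgControl (log2 difference -0.22, SE 0.040, adjusted p = 0.0011). Its falls in parental sgNORAD (-0.13 on the log2 scale) and circPRE8 sgNORAD (-0.12) against parental sgControl held less well. The first was lost without parental sgControl replicate 2 (adjusted p = 0.16), parental sgNORAD replicate 1 (0.0525) or parental sgNORAD replicate 2 (0.0654), and also with no filter on low values (0.0541) or with no intensity trend in the variance (0.074). The second was lost without parental sgControl replicate 2 (adjusted p = 0.22) or circPRE8 sgNORAD replicate 2 (0.278), and also with no filter on low values (0.0758) or with no intensity trend in the variance (0.101).

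CTH, the cystathionine lyase that makes cysteine from methionine, ran against the serine genes. CTH stood at 3.01 and 2.75 RPKM in circPRE8 sgNORAD, 4.68 and 4.28 in circPRE2 sgNORAD, 4.57 and 4.11 in parental sgNORAD, and 3.24 and 3.47 in parental sgControl. Its 4 circPRE2 sgNORAD and parental sgNORAD libraries all lay above its 4 circPRE8 sgNORAD and parental sgControl libraries. CTH rose 1.28-fold in parental sgNORAD against parental sgControl (log2 difference 0.36, SE 0.076, adjusted p = 0.00326) and fell by 32.9% in circPRE8 sgNORAD against parental sgNORAD (log2 difference -0.58, SE 0.076, adjusted p = 7.48e-05). A smaller fall in circPRE8 sgNORAD against parental sgControl (log2 difference -0.22) was sensitive to single libraries. It was lost without parental sgControl replicate 1 (adjusted p = 0.0604), parental sgControl replicate 2 (0.201) or circPRE8 sgNORAD replicate 2 (0.243), and also with no filter on low values (0.097) or with no intensity trend in the variance (0.0633). ASNS, asparagine synthetase, is a classical ATF4 target but was near the lowest tested levels. ASNS stood at 0.727 and 0.663 RPKM in circPRE8 sgNORAD, 0.746 and 0.552 in circPRE2 sgNORAD, 0.77 and 0.755 in parental sgNORAD, and 1.04 and 0.838 in parental sgControl. Parental sgControl held the 2 highest values and parental sgNORAD the next 2, and the circPRE8 sgNORAD and circPRE2 sgNORAD libraries overlapped below them. In a fit of the compared groups alone, or with a replicate block, ASNS was called as a fall in circPRE8 sgNORAD against parental sgControl (limma adjusted p = 0.0307 and 0.0363). In the main fit ASNS was called once, as a fall in circPRE2 sgNORAD against parental sgControl (log2 difference -0.48, SE 0.15, adjusted p = 0.0227). That call was lost without parental sgControl replicate 1 (adjusted p = 0.167) or circPRE2 sgNORAD replicate 2 (0.2), and also with no filter on low values (0.066). By GENCODE 29, 44.6% of the exon bases of ASNS are shared with another transcript on the same strand, so its level is uncertain.

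Among the 4 sensors of the unfolded protein response and their factors, XBP1 and ERN1 went opposite ways. In the main fit ATF6 was called once and EIF2AK3 in no comparison. XBP1, whose messenger RNA is the splicing target of IRE1 and which carries the ERSE letters shown above, was high where ATF4 was high. XBP1 stood at 28.1 and 26.6 RPKM in circPRE8 sgNORAD, 20.6 and 21.5 in circPRE2 sgNORAD, 21.5 and 21.3 in parental sgNORAD, and 24.5 and 26.1 in parental sgControl. The circPRE8 sgNORAD and parental sgControl libraries all lay above the other 4. XBP1 fell by 15.4% in parental sgNORAD against parental sgControl (log2 difference -0.24, SE 0.044, adjusted p = 0.00136) and rose 1.28-fold in circPRE8 sgNORAD against parental sgNORAD (log2 difference 0.35, SE 0.044, adjusted p = 5.11e-05). These gene levels do not tell spliced from unspliced XBP1. ERN1 stood at 2.22 and 2.19 RPKM in circPRE8 sgNORAD, 2.93 and 2.57 in circPRE2 sgNORAD, 2.89 and 2.77 in parental sgNORAD, and 2.37 and 2.37 in parental sgControl. ERN1, the gene of IRE1, was higher in circPRE2 sgNORAD and parental sgNORAD than in the other 2 groups, without overlap. ERN1 rose 1.18-fold in parental sgNORAD against parental sgControl (log2 difference 0.24, SE 0.076, adjusted p = 0.0253), and it fell by 21.1% in circPRE8 sgNORAD against parental sgNORAD (log2 difference -0.34, SE 0.076, adjusted p = 0.00275) and by 18.8% against circPRE2 sgNORAD. The rise was lost without parental sgControl replicate 1 (adjusted p = 0.0859), parental sgControl replicate 2 (0.0955) or parental sgNORAD replicate 1 (0.0961), and also with no filter on low values (0.0608). The fall against circPRE2 sgNORAD was lost without circPRE2 sgNORAD replicate 1 (adjusted p = 0.107).

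EIF2AK3 stood at 3.56 and 3.50 RPKM in circPRE8 sgNORAD, 3.43 and 3.29 in circPRE2 sgNORAD, 3.25 and 3.12 in parental sgNORAD, and 3.37 and 3.35 in parental sgControl. ATF6 stood at 8.86 and 8.54 RPKM in circPRE8 sgNORAD, 8.48 and 8.33 in circPRE2 sgNORAD, 8.95 and 8.07 in parental sgNORAD, and 9.16 and 9.77 in parental sgControl. EIF2AK3, the gene of PERK, was called in none of the 6 comparisons in the main fit. In circPRE8 sgNORAD against parental sgNORAD it was called as a rise with median-of-ratios scaling (limma adjusted p = 0.0286), upper quartile scaling (0.041) or no intensity trend (0.0299). With the same 2 scalings ATF6 was called as a fall in parental sgNORAD against parental sgControl (limma adjusted p = 0.0238 and 0.0252). In the main fit ATF6 was called once, as a fall in circPRE2 sgNORAD against parental sgControl (log2 difference -0.17, SE 0.057, adjusted p = 0.0313). That call was lost without parental sgControl replicate 2 (adjusted p = 0.212), circPRE2 sgNORAD replicate 1 (0.0877) or circPRE2 sgNORAD replicate 2 (0.126), and also with no filter on low values (0.0685) or with no intensity trend in the variance (0.0652).

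Most of the reticulum factors fell with sgNORAD in the parental line, and most were higher in circPRE8 sgNORAD than in parental sgNORAD. Of 12 factors, 0 rose and 8 fell in parental sgNORAD against parental sgControl, where 20.9% of all genes tested rose and 16.4% fell. In circPRE8 sgNORAD against parental sgNORAD 8 of the 12 rose and 1 fell, where 23.6% of all genes tested rose and 28.6% fell. At an unadjusted p under 0.05 in limma 0 rose in parental sgNORAD against parental sgControl, where 3061 of all 11585 genes did. The 1 fall, of EDEM1, was lost without any 1 of the 4 libraries compared, and without circPRE8 sgNORAD replicate 1 SDF2L1 was called in its place (adjusted p = 0.0272). In circPRE2 sgNORAD against parental sgNORAD limma called 0 of 12 in either direction, where 10.9% of all genes tested rose and 7.91% fell. Of the 12, 5 were higher and 1 lower at an unadjusted p under 0.05. Of all 11585 genes tested, 2146 were higher and 1745 lower at that threshold. With upper quartile scaling 3 rises were called, and 2 rises were called without parental sgNORAD replicate 1 and 1 fall without parental sgNORAD replicate 2 or without circPRE2 sgNORAD replicate 2. MANF stood at 41.0 and 39.9 RPKM in circPRE8 sgNORAD, 36.9 and 38.8 in circPRE2 sgNORAD, 35.6 and 33.8 in parental sgNORAD, and 43.4 and 45.4 in parental sgControl. MANF, a secreted survival factor that is released on calcium loss, was lowest in parental sgNORAD and highest in parental sgControl, with no overlap among the 4 groups. MANF fell by 21.8% in parental sgNORAD against parental sgControl (log2 difference -0.36, SE 0.042, adjusted p = 7.71e-05) and rose 1.17-fold in circPRE8 sgNORAD against parental sgNORAD (log2 difference 0.22, SE 0.042, adjusted p = 0.00103). It remained lower in circPRE8 sgNORAD than in parental sgControl (log2 difference -0.13). That last call was lost without parental sgControl replicate 2 (adjusted p = 0.161), circPRE8 sgNORAD replicate 1 (0.0527) or circPRE8 sgNORAD replicate 2 (0.145), and also with no filter on low values (0.0549) or with no intensity trend in the variance (0.0768).

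HYOU1, a large HSP70-like chaperone with 2 ERSE-II matches, and CRELD2, a MANF-like secreted factor with an ERSE match, also fell in the parental line with sgNORAD. HYOU1 stood at 42.2 and 41.8 RPKM in circPRE8 sgNORAD, 36.1 and 36.1 in circPRE2 sgNORAD, 35.1 and 33.1 in parental sgNORAD, and 40.3 and 41.1 in parental sgControl. CRELD2 stood at 10.8 and 11.6 RPKM in circPRE8 sgNORAD, 9.57 and 10.4 in circPRE2 sgNORAD, 9.16 and 8.84 in parental sgNORAD, and 11.2 and 10.7 in parental sgControl. Both were lowest in parental sgNORAD, and for HYOU1 the 4 circPRE8 sgNORAD and parental sgControl libraries all lay above the other 4. HYOU1 fell by 16.2% and CRELD2 by 17.8% in parental sgNORAD against parental sgControl (adjusted p = 0.000344 and 0.0018). They rose 1.23-fold and 1.24-fold in circPRE8 sgNORAD against parental sgNORAD (adjusted p = 5.26e-05 and 0.000569).

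The disulfide isomerases PDIA4 and PDIA6, which form and reshuffle disulfide bonds, and the lectin chaperones CALR and CANX, which hold newly made glycoproteins, were among the most abundant of the 40 genes. PDIA4 stood at 154 and 153 RPKM in circPRE8 sgNORAD, 138 and 143 in circPRE2 sgNORAD, 133 and 125 in parental sgNORAD, and 150.0 and 157 in parental sgControl. PDIA6 stood at 44.1 and 45.1 RPKM in circPRE8 sgNORAD, 43.6 and 44.0 in circPRE2 sgNORAD, 42.5 and 40.9 in parental sgNORAD, and 47.4 and 51.1 in parental sgControl. All 4 parental sgNORAD and circPRE2 sgNORAD libraries lay under the 2 parental sgControl libraries for either gene. For PDIA6 both circPRE8 sgNORAD libraries did so too, and PDIA6 fell in circPRE8 sgNORAD against parental sgControl (log2 difference -0.14, limma adjusted p = 0.0164). That call was lost with no intensity trend in the variance (0.0583), and without parental sgControl replicate 2 or circPRE8 sgNORAD replicate 1. PDIA4 fell by 15.9% and PDIA6 by 15.2% in parental sgNORAD against parental sgControl (adjusted p = 0.00069 and 0.00101). PDIA4 rose 1.19-fold in circPRE8 sgNORAD against parental sgNORAD (adjusted p = 0.000395), whereas PDIA6, with a log2 difference of 0.09, was not called. With median-of-ratios or upper quartile scaling PDIA6 was called there as a rise (limma adjusted p = 0.0311 and 0.0382). CALR stood at 364 and 365 RPKM in circPRE8 sgNORAD, 341 and 360.0 in circPRE2 sgNORAD, 331 and 315 in parental sgNORAD, and 356 and 369 in parental sgControl. CANX stood at 187 and 183 RPKM in circPRE8 sgNORAD, 166 and 169 in circPRE2 sgNORAD, 169 and 164 in parental sgNORAD, and 187 and 187 in parental sgControl. The parental sgNORAD libraries were the lowest 2 for CALR, and for CANX they overlapped those of circPRE2 sgNORAD. CALR fell by 10.9% and CANX by 10.8% in parental sgNORAD against parental sgControl (adjusted p = 0.00874 and 0.00318), and they rose 1.13-fold and 1.11-fold in circPRE8 sgNORAD against parental sgNORAD (adjusted p = 0.00431 and 0.00339). The CALR fall was lost without parental sgControl replicate 2 (adjusted p = 0.0524) or parental sgNORAD replicate 2 (0.0625).

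The degradation factors behaved in different ways. HERPUD1, a membrane protein that organises the degradation complex and carries both CARE and ERSE-II letters, was highest in circPRE8 sgNORAD. HERPUD1 stood at 12.1 and 12.1 RPKM in circPRE8 sgNORAD, 10.4 and 10.4 in circPRE2 sgNORAD, 10.5 and 10.3 in parental sgNORAD, and 10.9 and 11.2 in parental sgControl. The circPRE8 sgNORAD libraries lay above the other 6. HERPUD1 rose 1.16-fold in circPRE8 sgNORAD against parental sgNORAD (log2 difference 0.21, SE 0.041, adjusted p = 0.00117) and was not called with sgNORAD in the parental line (log2 difference -0.09). With median-of-ratios or upper quartile scaling HERPUD1 was called there as a fall (limma adjusted p = 0.042 and 0.0428). SEL1L stood at 11.7 and 11.3 RPKM in circPRE8 sgNORAD, 10.8 and 10.7 in circPRE2 sgNORAD, 10.4 and 10.0 in parental sgNORAD, and 10.8 and 10.4 in parental sgControl. SEL1L, the adaptor of the HRD1 ubiquitin ligase, rose in circPRE8 sgNORAD against parental sgNORAD (log2 difference 0.17, SE 0.044, adjusted p = 0.00653). That call was lost without circPRE8 sgNORAD replicate 1 (adjusted p = 0.0541). EDEM1 stood at 3.88 and 4.13 RPKM in circPRE8 sgNORAD, 5.30 and 4.76 in circPRE2 sgNORAD, 4.52 and 4.62 in parental sgNORAD, and 4.40 and 4.01 in parental sgControl. EDEM1, which trims mannose from misfolded glycoproteins and is a target of XBP1, did not follow XBP1: it was lowest on average in circPRE8 sgNORAD, whose libraries overlapped those of parental sgControl, and highest in circPRE2 sgNORAD. EDEM1 rose in circPRE2 sgNORAD against parental sgControl (log2 difference 0.25, limma adjusted p = 0.0121), a call lost without parental sgControl replicate 2 or circPRE2 sgNORAD replicate 1. EDEM1 fell by 19.9% in circPRE8 sgNORAD against circPRE2 sgNORAD (log2 difference -0.32, SE 0.069, adjusted p = 0.00322), and by 12.1% against parental sgNORAD. The fall against parental sgNORAD was lost without parental sgNORAD replicate 1 (adjusted p = 0.0693), parental sgNORAD replicate 2 (0.112), circPRE8 sgNORAD replicate 1 (0.21) or circPRE8 sgNORAD replicate 2 (0.0548), and also with no filter on low values (0.0862), with median-of-ratios scaling (0.0672), with upper quartile scaling (0.0677) or with no intensity trend in the variance (0.0597).

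SDF2L1 stood at 60.1 and 52.8 RPKM in circPRE8 sgNORAD, 56.6 and 59.2 in circPRE2 sgNORAD, 61.5 and 59.2 in parental sgNORAD, and 57.3 and 63.3 in parental sgControl. SDF2L1, a cochaperone gene with an ERSE-II match, was called in none of the 6 comparisons with all libraries. TXNDC5 stood at 4.59 and 4.42 RPKM in circPRE8 sgNORAD, 1.53 and 2.67 in circPRE2 sgNORAD, 4.38 and 2.37 in parental sgNORAD, and 6.80 and 6.45 in parental sgControl. TXNDC5, a disulfide isomerase, had the widest spread within groups, with parental sgNORAD replicate 2 near the circPRE2 sgNORAD libraries and replicate 1 near those of circPRE8 sgNORAD. TXNDC5 fell by 50.4% in parental sgNORAD against parental sgControl (log2 difference -1.01, SE 0.25, adjusted p = 0.00734), the largest difference of the 38 genes there, and in circPRE2 sgNORAD by 68.3% (log2 difference -1.66, SE 0.25, adjusted p = 0.000291). With no filter on low values the first of these was not called (adjusted p = 0.0575). By GENCODE 29, 60.6% of its exon bases are shared with the readthrough gene BLOC1S5-TXNDC5, so these values are uncertain.

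**Figure D3:**
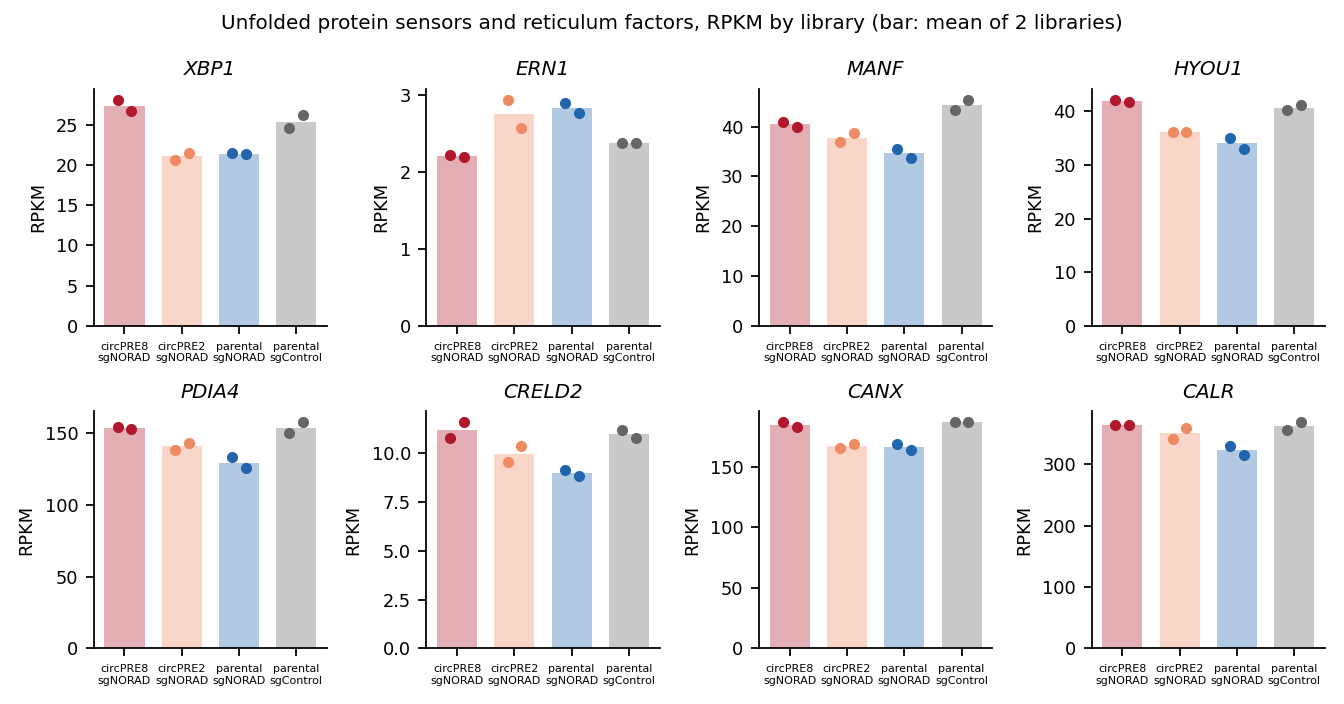
RPKM in each library (points, 2 per group) with the mean of the group (bars from 0) for the sensor genes XBP1 and ERN1 and the reticulum factors MANF, HYOU1, PDIA4, CRELD2, CANX and CALR, with groups from left to right circPRE8 sgNORAD, circPRE2 sgNORAD, parental sgNORAD and parental sgControl. The factors other than XBP1 and ERN1 are lowest or tied for lowest in parental sgNORAD, and ERN1 is higher in the middle 2 groups.

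Side by side, both arms had mostly falls in parental sgNORAD against parental sgControl and mostly rises in circPRE8 sgNORAD against parental sgNORAD. In parental sgNORAD against parental sgControl, 3 of 22 tested ATF4-arm genes and enzymes rose and 10 fell, and 1 of 16 reticulum genes rose and 9 fell. Of all genes tested, 20.9% rose and 16.4% fell there. The 10 falls became 6 without parental sgControl replicate 2, and the 1 rise became 0 without either parental sgControl library or without parental sgNORAD replicate 1. In circPRE8 sgNORAD against parental sgNORAD, 14 of 22 rose and 3 fell, and 9 of 16 rose and 2 fell. Of all genes tested, 23.6% rose and 28.6% fell there. The 14 rises became 9 without circPRE8 sgNORAD replicate 2, and the 2 falls became 1 without either parental sgNORAD library or without circPRE8 sgNORAD replicate 2. In circPRE2 sgNORAD against parental sgNORAD, 2 of 22 were higher and 12 lower at an unadjusted p under 0.05 in limma. Of the 16 reticulum genes, 5 were higher and 1 lower at that threshold, and of all 11585 genes tested 2146 were higher and 1745 lower. With adjustment limma called 0 of 16, and of the 22 genes 2 rose and 4 fell, where 10.9% of all genes rose and 7.91% fell. The 2 rises became 1 without parental sgNORAD replicate 1 or circPRE2 sgNORAD replicate 1 and 0 without replicate 2 of either group, and the 4 falls became 2 without replicate 1 of either group. By mean level, circPRE2 sgNORAD was lowest for 15 of the 22 ATF4-arm genes and enzymes (68.2%, against 16.9% of all genes tested). Parental sgNORAD was lowest for 10 of the 16 reticulum genes (62.5%, against 22.4% of all genes tested), and for 9 of the 12 factors among them (75%). The median of the 12 reticulum factors relative to the parental sgControl mean was 0.00 and -0.02 in the circPRE8 sgNORAD libraries, -0.16 and -0.09 in those of circPRE2 sgNORAD and -0.18 and -0.23 in those of parental sgNORAD. Over all 16 reticulum genes it was -0.001 and -0.016, -0.155 and -0.094, and -0.137 and -0.214 in the same order. For the 22 ATF4-arm genes and enzymes it was 0.00 and 0.01 in circPRE8 sgNORAD, -0.26 and -0.23 in circPRE2 sgNORAD, and -0.13 and -0.17 in parental sgNORAD. These are descriptions, and the difference between the arms was not tested.

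**Figure D4:**
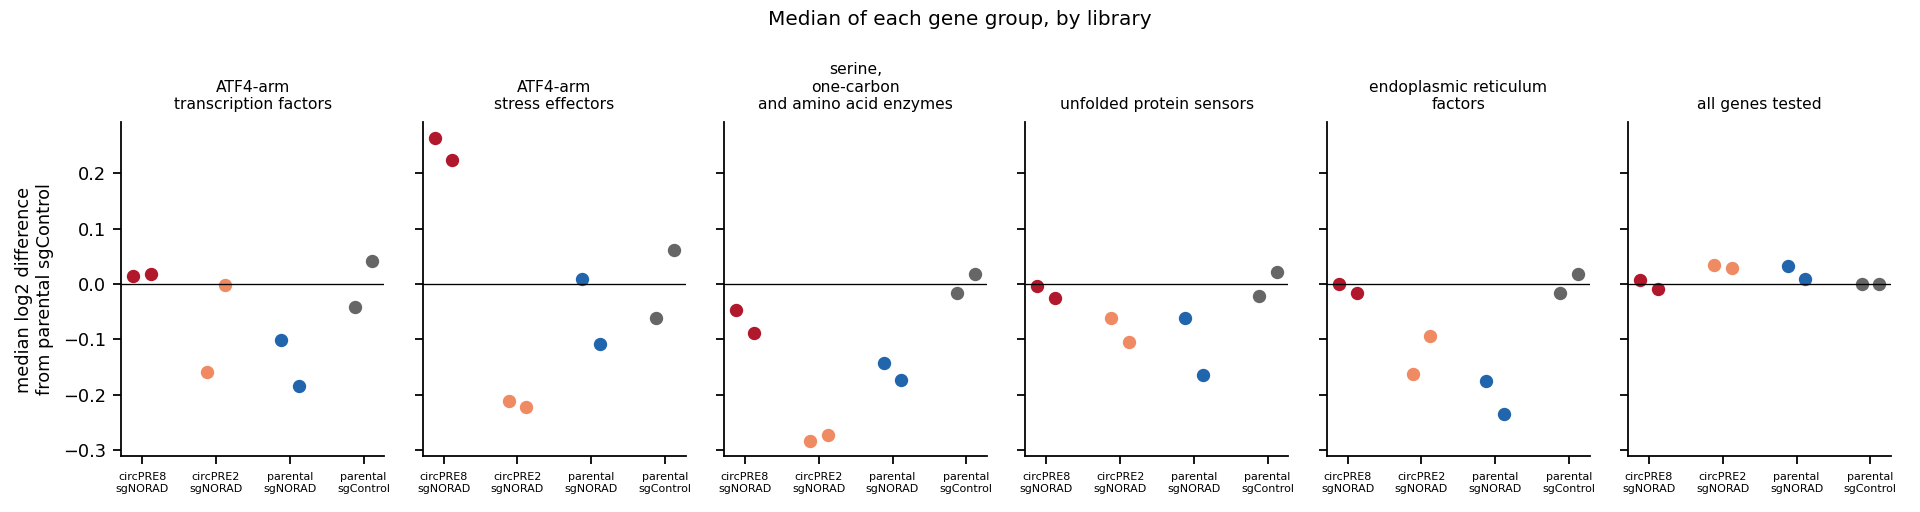
Median log2 difference from the parental sgControl mean over the genes of each of the 5 roles and over all 11585 genes tested (panels), with 1 point for each library, in groups from left to right circPRE8 sgNORAD, circPRE2 sgNORAD, parental sgNORAD and parental sgControl. The stress effectors lie at 0.22 to 0.26 in circPRE8 sgNORAD, the enzymes are lowest in circPRE2 sgNORAD at -0.28 and -0.27, the reticulum factors are lowest in parental sgNORAD at -0.18 and -0.23, and all genes lie within 0.04 of 0.

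**Figure D5:**
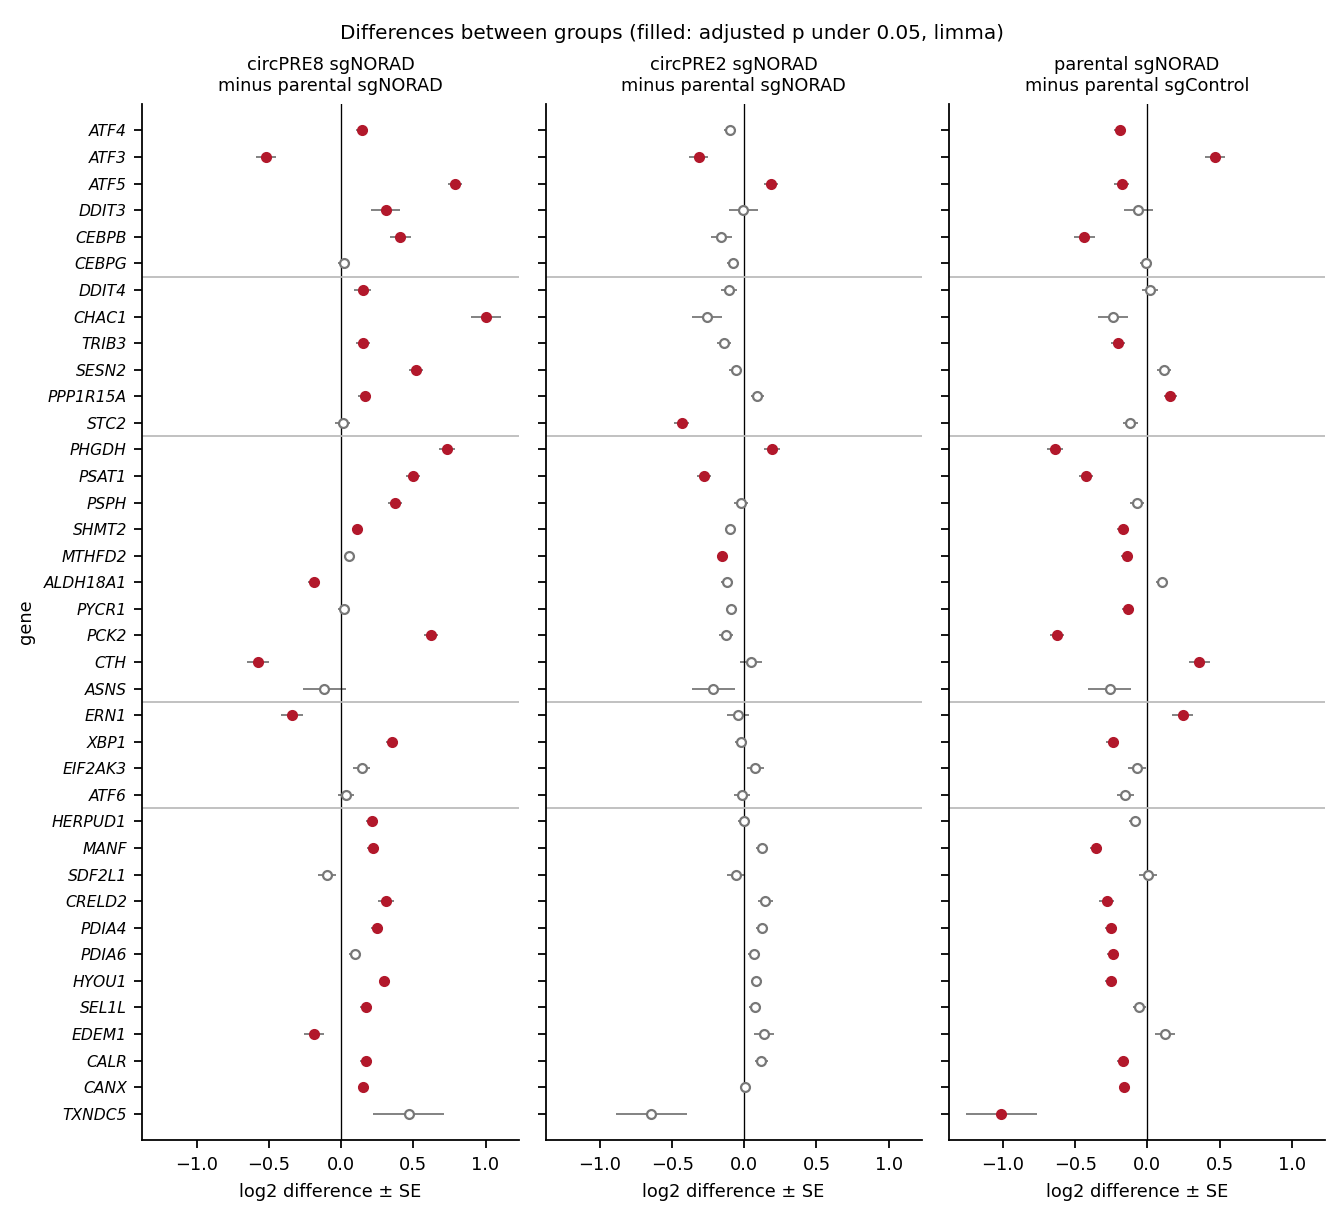
Log2 difference with its standard error (horizontal bars) for each of the 38 genes (rows) in circPRE8 sgNORAD minus parental sgNORAD, circPRE2 sgNORAD minus parental sgNORAD, and parental sgNORAD minus parental sgControl (panels from left to right), with filled points at an adjusted p under 0.05 in limma. The 3 panels share the parental sgNORAD libraries, so values on opposite sides of 0 in the outer panels are not separate evidence. In the middle panel 6 points are filled, against 28 in the left and 23 in the right one.

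Genes of the same pathways outside the 40 gave a mixed picture. Of all genes tested, 20.9% rose and 16.4% fell in parental sgNORAD against parental sgControl. In circPRE8 sgNORAD against parental sgNORAD 23.6% rose and 28.6% fell, and in circPRE2 sgNORAD against parental sgNORAD 10.9% rose and 7.91% fell. Of 25 other folding and degradation factors of the reticulum tested, 0 rose and 13 fell in parental sgNORAD against parental sgControl, and 16 rose and 3 fell in circPRE8 sgNORAD against parental sgNORAD. At an unadjusted p under 0.05 in limma 0 of them rose in parental sgNORAD against parental sgControl, where 3061 of all 11585 genes did. HSP90B1, the reticulum HSP90, fell by 19.9% and DNAJB11, an HSP40 cochaperone, fell by 18.7% in parental sgNORAD against parental sgControl (adjusted p = 8e-05 and 0.000339). In circPRE8 sgNORAD against parental sgNORAD, DNAJB9, an HSP40 that restrains IRE1, rose 1.40-fold and SELENOS, a degradation factor, rose 1.38-fold, while UGGT1, which tags misfolded glycoproteins, fell by 16.2% and the oxidase gene ERO1A by 11.5%. In circPRE2 sgNORAD against parental sgNORAD, 7 of the 25 rose, which became 2 without parental sgNORAD replicate 2 and 0 without either circPRE2 sgNORAD library. The 3 falls in circPRE8 sgNORAD became 1 without circPRE8 sgNORAD replicate 2.

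The cytosolic tRNA synthetases, many of them ATF4 targets, split in both directions. Of 20 tested, 8 rose and 8 fell in circPRE8 sgNORAD against parental sgNORAD, and 5 rose and 7 fell in parental sgNORAD against parental sgControl. The shares of all genes tested were 23.6% risen and 28.6% fallen in the first comparison, and 20.9% and 16.4% in the second. In circPRE2 sgNORAD against parental sgNORAD they were 10.9% and 7.91%. TARS fell by 29.3% and YARS by 20.9% in parental sgNORAD against parental sgControl, and FARSB rose 1.18-fold and LARS rose 1.15-fold. In circPRE8 sgNORAD against parental sgNORAD, TARS rose 1.33-fold and CARS rose 1.20-fold, while LARS fell by 36.0% and FARSB by 32.7%. In circPRE2 sgNORAD against parental sgNORAD, 0 rose (also 0 at an unadjusted p under 0.05 in limma) and 10 fell, with FARSB falling by 18.9%, and the 10 became 3 without circPRE2 sgNORAD replicate 1 and 6 without replicate 2. The 5 rises with sgNORAD in the parental line became 3 without either parental sgControl library.

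Of 11 eIF2 kinases and subunits of eIF2 and eIF2B tested, 1 rose and 3 fell in parental sgNORAD against parental sgControl, and 3 rose and 4 fell in circPRE8 sgNORAD against parental sgNORAD. The shares of all genes tested were 20.9% risen and 16.4% fallen in the first comparison, and 23.6% and 28.6% in the second. The counts in circPRE8 sgNORAD were of the size of the background. EIF2AK1, the eIF2 kinase HRI, which answers to haem shortage and mitochondrial stress, moved most. EIF2AK1 stood at 44.1 and 44.6 RPKM in circPRE8 sgNORAD, 34.5 and 34.6 in circPRE2 sgNORAD, 31.9 and 30.7 in parental sgNORAD, and 45.0 and 45.3 in parental sgControl. Its parental sgNORAD libraries were the lowest, and its circPRE8 sgNORAD and parental sgControl libraries lay above the other 4. EIF2AK1 fell by 30.5% in parental sgNORAD against parental sgControl (log2 difference -0.52, SE 0.035, adjusted p = 1.21e-06) and rose 1.41-fold in circPRE8 sgNORAD against parental sgNORAD (log2 difference 0.50, SE 0.035, adjusted p = 5.88e-07). EIF2AK4, the amino acid sensing kinase GCN2, fell by 13.1% in circPRE8 sgNORAD against parental sgNORAD. The 1 rise with sgNORAD in the parental line, of EIF2AK2, became 0 without either parental sgControl library or without parental sgNORAD replicate 1, and the 4 falls in circPRE8 sgNORAD became 2 without circPRE8 sgNORAD replicate 2.

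Of 8 other one-carbon and glycine cleavage enzymes tested, 1 rose and 1 fell in parental sgNORAD against parental sgControl, and 1 rose and 4 fell in circPRE8 sgNORAD against parental sgNORAD. The shares of all genes tested were 20.9% risen and 16.4% fallen in the first comparison, and 23.6% and 28.6% in the second. SHMT1, the cytosolic counterpart of SHMT2, fell by 15.2% in parental sgNORAD against parental sgControl and rose 1.21-fold in circPRE8 sgNORAD against parental sgNORAD (adjusted p = 0.00204 and 0.000411). MTHFD1, the cytosolic folate enzyme, fell by 22.7% in circPRE8 sgNORAD against parental sgNORAD (adjusted p = 3.77e-05). The 1 rise with sgNORAD in the parental line, of GCSH, became 0 without either parental sgControl library or without parental sgNORAD replicate 1, and the 4 falls in circPRE8 sgNORAD became 2 without parental sgNORAD replicate 1.

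Exons of other genes overlap some of the 40, and counting is not stated to use strand, so their reads could be shared. On the other strand, DDIT4-AS1 overlaps 41.2% of the DDIT4 exon bases, AC006030.1 and SLC4A5 overlap 33.2% of those of MTHFD2, MARS and MBD6 overlap 31.6% of those of DDIT3, ATP6V1C2 overlaps 25.2% of those of PDIA6, IL4I1 and NUP62 overlap 21.2% of those of ATF5, and CEBPB-AS1 overlaps 11.8% of those of CEBPB. PYCR1 shares 14.1% of its exon bases with MYADML2 on its own strand and 15.6% with AC145207.4 on the other. Values of these genes are uncertain to that extent.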

How the data were processed

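RPKM values (reads per kilobase of exon and megaread) were deposited by the authors as 1 table, covering poly(A) RNA of 8 HCT116 libraries. Per the submitters' processing notes, STAR (version not given), featureCounts 1.6.0, edgeR 3.24.0 and the build hg38 were used; neither the annotation nor the strand setting is stated there. All columns of values were used (0 left unused), and groups came from the genotype and guide labels. A count test planned for a count table was not used. The table was fitted as log2(RPKM + 0.1) with limma 3.58.1 in R 4.3.3, with 1 coefficient per group over all 8 libraries and an intensity trend, on the 11585 genes that reached 0.5 RPKM in 2 or more libraries. Adding 0.1 understates changes of low genes. Coordinates and exon overlaps are from GENCODE 29 (hg38). The whole reads given for NUPR1 were recovered within 0.1 read, and such numbers and depths cover counting error only.

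The 40 genes and all lists were chosen with earlier results of these data known. By the rule for named genes, every member is accounted for and, in each comparison, up to 3 called members in each direction of each of 5 lists are given by library; of other lists, up to 2 in each direction were eligible. The fit was tested on simulated data. Alternatives were other pseudocounts, filters, scalings and variance settings, a replicate block, and leaving out each library.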

Additional observations from a re-analysis of the deposited data

How the results depend on the processing

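Over the 6 comparisons there were 118 calls of member genes, of which 80 were kept in all 16 alternatives of their comparison, 38 were lost in at least 1 and 37 of these when a library was left out; 0 changed direction. Leaving out each library in turn gave 17 to 23 calls in parental sgNORAD against parental sgControl (23 with all libraries), 3 to 8 in circPRE2 sgNORAD against parental sgNORAD (6), 22 to 28 in circPRE8 sgNORAD against parental sgNORAD (28), 20 to 27 in circPRE8 sgNORAD against circPRE2 sgNORAD (26), 19 to 25 in circPRE2 sgNORAD against parental sgControl (24) and 6 to 15 in circPRE8 sgNORAD against parental sgControl (11). Where a group was left with 1 library, that library was assumed to vary like those of the other groups. Without an intensity trend in the variance, circPRE2 sgNORAD against parental sgNORAD had 3 calls and circPRE8 sgNORAD against parental sgControl had 6, and the cause was not tested. With the replicate number as a block, the counts were 23, 6, 27, 26, 24 and 12 in the same order. The block lost the calls of DDIT4 in circPRE8 sgNORAD against parental sgNORAD (limma adjusted p = 0.0564) and of PYCR1 in circPRE8 sgNORAD against parental sgControl (0.0521) and no other call of the 40 genes. The correlations of deviations between same-numbered libraries ran from -0.173 to 0.211, so no strong shared deviation was seen. These values cannot tell whether same-numbered libraries were handled in pairs, and the main fit did not pair them. Other scalings moved the median of all genes by less than 0.1 on the log2 scale. Depth of 28.39 megareads in parental sgNORAD replicate 1 limits the lowest genes, such as NUPR1.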
